A study of Mus musculus with 42 samples.

Results

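The genes described here are 10 genes of the TGF-beta and activin pathway. The ligand genes are Tgfb1, Tgfb2, Tgfb3 and Inhba, and Ltbp2 belongs to the latent TGF-beta binding protein family. The receptor genes are Tgfbr1, Tgfbr2 and Tgfbr3, and the signal transducer genes are Smad2 and Smad3. All 10 were chosen by gene name, among the 19227 gene names that occur in the 12 deposited tables of normalized counts. TGF-beta is secreted in a latent form that some members of the latent binding protein family store in the matrix. Once released it binds TGFBR2, which recruits TGFBR1, while TGFBR3 presents the ligand. Activins are dimers of inhibin beta chains, such as the one encoded by Inhba, and use receptors of their own, but both kinds of ligand lead to phosphorylation of SMAD2 and SMAD3, which act together with SMAD4. BMP signals through other receptors, ALK3 among them, and other SMADs that also act with SMAD4, so that Smad4 loss removes a partner common to both branches and Alk3 loss removes a receptor of the BMP branch alone.

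The study asked what BMP signaling in Gli1-expressing stromal cells does in the mouse colon. Adult mice of both sexes carried Gli1-CreERT2, which restricts the deletion to Gli1-expressing cells, and all of them, controls included, received tamoxifen and were collected on day 30. Stromal cells were sorted by tdTomato from proximal and distal colon of controls (GWTT, Gli1-CreERT2 with Rosa26-tdTomato), of mice with floxed Smad4 alleles as well (GS4T) and of mice with floxed Alk3 alleles as well (GA3T, Alk3 being the gene Bmpr1a). Goblet cells were sorted from the corresponding GWTM2, GS4M2 and GA3M2 mice, which carried a Muc2-mCherry reporter, so these epithelial cells came from colons with deleted stromal cells and were not themselves the cells targeted. Wild-type colon organoids, epithelial cultures without stroma, were left untreated or given IL-1 (IL-1α with IL-1β) or IL-17A at 10 nM for 12 h or 72 h. Their medium held EGF, Noggin, R-spondin1, Wnt3a conditioned medium and CHIR. Each sorted group had 2 libraries and each organoid group 3, 42 libraries in all. The labels give intestinal epithelium as the tissue of every library, the stromal ones included, and do not say whether a library held cells of 1 mouse or of several, so p-values measure the spread between libraries.

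Reads on named genes ranged from 14222902 to 23686940 per stromal library, from 15647603 to 20783127 per goblet cell library and from 14815170 to 17665812 per organoid library. Values are the normalized counts of the table of each comparison, and each table was scaled by itself, so that the same control library has slightly different values in separate tables. Knockout was tested against control within each table with limma on log2(normalized count + 1), and a gene was called where the adjusted p was under 0.05 and the log2 fold change was 1 or more, or -1 or less. Both knockout tables of a segment contain the same 2 control libraries, and both cytokine tables of a time contain the same 3, so paired results share that part of their error and are given side by side. With 2 libraries against 2 an exact permutation test cannot go below 0.333, and with 3 against 3 it cannot go below 0.1.

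The deleted genes were compared first. Smad4 was at 1604 and 1673 normalized counts in the proximal controls and at 705 and 835 in the proximal GS4T libraries. Distally it was at 1781 and 1703 in controls and 680.3 and 1171 in GS4T. Every GS4T library lay below both of its controls, and Smad4 fell by 1.09 on the log2 scale in the proximal colon (adjusted p = 0.0101), while the distal difference of -0.96 (adjusted p = 0.0424) missed the fold minimum. Bmpr1a was at 2960 and 3220.2 in proximal controls and 2233 and 1842 in proximal GA3T libraries. It was at 3359 and 3485 in distal controls and 2203 and 2043 in distal GA3T. Both GA3T libraries lay below both controls in each segment, but the differences of -0.61 and -0.69 were not called (adjusted p = 0.120 and 0.101). The counts cover the whole gene, so reads from outside the floxed exons are included. Smad4 in GA3T was at 1571 and 1864 proximally and 1544 and 1688 distally, against proximal controls at 1687 and 1759 and distal controls at 2031 and 1938, and Bmpr1a in GS4T was at 2722 and 3008 proximally and 2545 and 2527 distally, against proximal controls at 2813 and 3063 and distal controls at 2944 and 3062. The gene that was not deleted thus overlapped its controls proximally and lay somewhat below them distally, by -0.30 for Smad4 in GA3T and -0.24 for Bmpr1a in GS4T, with no call.

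Gli1, the gene that drives the Cre, was at 642 and 1597 in proximal controls and at 1481 and 23.9 in proximal GS4T. In proximal GA3T it was at 1292 and 34.7 against 676 and 1679.6 in the controls as scaled in that table. The second proximal library of each knockout thus held few Gli1 reads, while its deleted gene was at a level near that of the first. The labels name these cells by tdTomato and not by Gli1 itself. Distal Gli1 was at 1634 and 1353 in controls, 875 and 1096 in GS4T and, in its own table, 792 and 1063 in GA3T. For Inhba, Ltbp2, Tgfb1 and Tgfb3, and for the counts of pathway genes called, proximal results are therefore also given without these 2 libraries. Muc2, a goblet cell gene, was at 61.0 and 2672 in proximal controls, 4519 and 11449 in proximal GS4T and 2518 and 4598 in proximal GA3T. Its distal values were 464 and 1099.7 in controls, 2843 and 10001 in GS4T and 3244 and 2219.9 in GA3T, so reads of goblet cells were present in all stromal libraries, with the highest value of each segment in a GS4T library. In GS4T Muc2 rose by 2.90 distally (adjusted p = 0.0282). By their sex-linked reads, GWTT-Proximal and both GA3T groups held a male and a female library, and the GWTT-Distal and GS4T libraries were female.

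Fibroblast markers (7 genes, Col1a2 most abundant, none at 0) summed to between 11986 and 18758 RPM (reads per 1000000 reads on named genes) in the 12 stromal libraries, so the stromal identity was present throughout. Markers of other cells moved with the genotype. The 8 macrophage genes, led by Lyz2, summed in RPM to 173 and 283 in proximal controls, 1515 and 870.1 in GS4T and 752 and 1377 in GA3T. Their distal sums were 682 and 575 in distal controls, 2048 and 1126 in GS4T and 983 and 692 in GA3T. Every proximal knockout library lay above both controls, and in the distal colon every GS4T and GA3T library did too. The 6 neutrophil genes summed to 2.08 and 6.49 in proximal controls, 66.9 and 83.1 in GS4T and 13.5 and 48.9 in GA3T, and to 6.32 and 3.58 in distal controls, 162 and 226 in GS4T and 19.3 and 18.1 in GA3T, with 2 of them at 0 in the first proximal control and 1 in each other control. S100a9 was the most abundant in distal GS4T, where the sums were the highest of all. Epithelial genes (6, led by Krt8) summed to 11.1 and 419 in proximal controls, 1053 and 1279 in GS4T and 417 and 636 in GA3T, and to 47.7 and 144 in distal controls, 569 and 1117 in GS4T and 819.9 and 346 in GA3T.

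Goblet cell genes (8, led by Muc2 or Fcgbp) summed in RPM to 4.77 and 380.1 in proximal controls, 432 and 949 in GS4T and 238 and 423 in GA3T, and to 138 and 284 in distal controls, 263 and 806 in GS4T and 713 and 235 in GA3T, with 2 genes at 0 in the first proximal control. B or plasma cell genes, led by Jchain, ran the other way, at 1563 and 2784 in proximal controls, 426 and 827 in GS4T and 891 and 935 in GA3T, and at 3487 and 4817 in distal controls, 111 and 447 in GS4T and 1797 and 1947 in GA3T, where 2 of them were at 0 in the first distal GS4T library. Smooth muscle genes (4, led by Myh11) summed to 264 and 166 in proximal controls, 431 and 363 in GS4T and 269 and 360.1 in GA3T, and to 589 and 571 in distal controls, 565 and 345 in GS4T and 514 and 384 in GA3T. T cell genes reached at most 22.6, endothelial genes lay between 16.2 and 104, and glial and neuronal genes reached at most 8.15. In these bulk libraries, fewer cells of a type and less RNA per cell cannot be told apart, and the part of the other cell types in the results below was not tested.

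With Smad4 loss in the proximal colon, limma called 6 of 8 macrophage genes up (median log2 fold change 1.94) and 4 of 5 tested neutrophil genes up (4.98). There, 1 of 8 goblet cell genes (4.21), 1 of 6 epithelial genes (4.22), 1 of 4 smooth muscle genes (0.75) and 1 of 4 endothelial genes (1.40) rose. In the same comparison 1 of 7 fibroblast genes (-0.12), 1 of 5 T cell genes (-0.80) and 1 of 3 B or plasma cell genes (-1.41) fell, and the 2 glial and neuronal genes tested were not called by limma, edgeR or DESeq2, nor at an unadjusted p under 0.05. Distal Smad4 loss came with calls up for 6 of 6 neutrophil genes (6.16), 6 of 6 epithelial genes (3.20) and 4 of 8 macrophage genes (1.36). In both segments the neutrophil genes were low in controls, and no control had reads on all of them. Such a gene could reach the minimum mean count needed for testing through GS4T alone. The neutrophil counts may thus partly reflect that minimum, and their medians are not exact. Of 8 goblet cell genes 3 rose and 1 fell (1.74), of 4 smooth muscle genes 1 rose and 1 fell (0.34), and 1 of 7 fibroblast genes (0.30) and 3 of 5 B or plasma cell genes (-3.51) fell. The medians of 4 endothelial, 3 T cell and 1 glial gene were 0.66, -1.67 and -1.34, with none called by limma or edgeR, 1 T cell gene called by DESeq2, and 1 T cell and 1 glial gene at an unadjusted p under 0.05.

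In both Alk3 comparisons limma and edgeR called 0 genes of these lists. In the proximal colon DESeq2 called 7 of 8 macrophage genes (median 2.05) and 3 of 5 neutrophil genes (2.65), the same counts as at an unadjusted p under 0.05. Proximal medians were 2.98 for goblet cell, 3.01 for epithelial, 0.06 for fibroblast, 0.49 for smooth muscle, -0.75 for B or plasma cell, -0.27 for T cell, 0.42 for endothelial and -0.35 for glial genes. At the unadjusted threshold 1 gene passed in the goblet cell, epithelial, smooth muscle, T cell, B or plasma cell and endothelial lists each and 0 in the others, and DESeq2 called 1 smooth muscle and 1 B or plasma cell gene. In the distal colon the unadjusted counts were 6 of 6 epithelial genes (2.67), 4 of 8 goblet cell genes (1.54), 3 of 5 neutrophil genes (1.68) and 1 of 5 B or plasma cell genes (-0.38), of which DESeq2 called 4, 3, 2 and 1. The controls are the same libraries as for Smad4 loss, so the limit given there for neutrophil genes applies to both segments here too. The distal medians of macrophage, fibroblast, smooth muscle, T cell, endothelial and glial genes were 0.22, -0.04, -0.35, 1.06, -0.19 and -0.77, with 0 genes at the unadjusted threshold or by DESeq2.

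All 10 genes of the pathway had a value in each of the 4 stromal tables and passed the minimum mean of 10 normalized counts. With loss of Smad4 in the proximal colon 4 of the 10 were called, with Inhba, Ltbp2 and Tgfb1 higher and Tgfb3 lower, where 9.60% of the 15315 genes tested were called. In the distal colon 3 of 10 were called, Inhba and Ltbp2 higher and Tgfb3 lower, against 13.9% of 15258 genes. That share was much lower when either GWTT-Distal library was left out, which leaves 1 control. Without GS4T-Proximal replicate 1 or replicate 2, the proximal count was 2, with Inhba and Ltbp2 kept, and 115 and 360 of all genes were called. With Alk3 loss limma called 0 of the 10 in the proximal colon, where it called 0.358% of 15346 genes, and edgeR called 0. By unadjusted p (under 0.05, fold minimum kept) 3 passed there (Inhba, Ltbp2 and Tgfb1; 9.46% of all genes), and DESeq2 on whole reads called the same 3 (6.29%). In the distal colon with Alk3 loss limma called 0 of the 10 and 0% of 15414 genes, and edgeR called 0 of either. There, 3 of the 10 passed the unadjusted threshold (Inhba, Ltbp2 and Tgfb3; 7.77% of all genes), and DESeq2 called Inhba alone, against 5.03% of all genes. Without GA3T-Proximal replicate 1, the proximal Alk3 count was 2 (1.52% of all genes), without replicate 2, which held few Gli1 reads, it was 0 (0.00654%), and without GA3T-Distal replicate 1 the distal count was 3 (Inhba, Tgfb3 and Tgfbr1; 4.87%). Blocking on library sex, an alternative chosen after seeing the data, gave a proximal Alk3 count of 2 (Inhba and Ltbp2; 1.65% of all genes). Distally it sets GA3T-Distal replicate 2 alone against the controls, the same contrast as without replicate 1, with the same 3 genes called (3.89% of all genes).

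**Figure D1:**
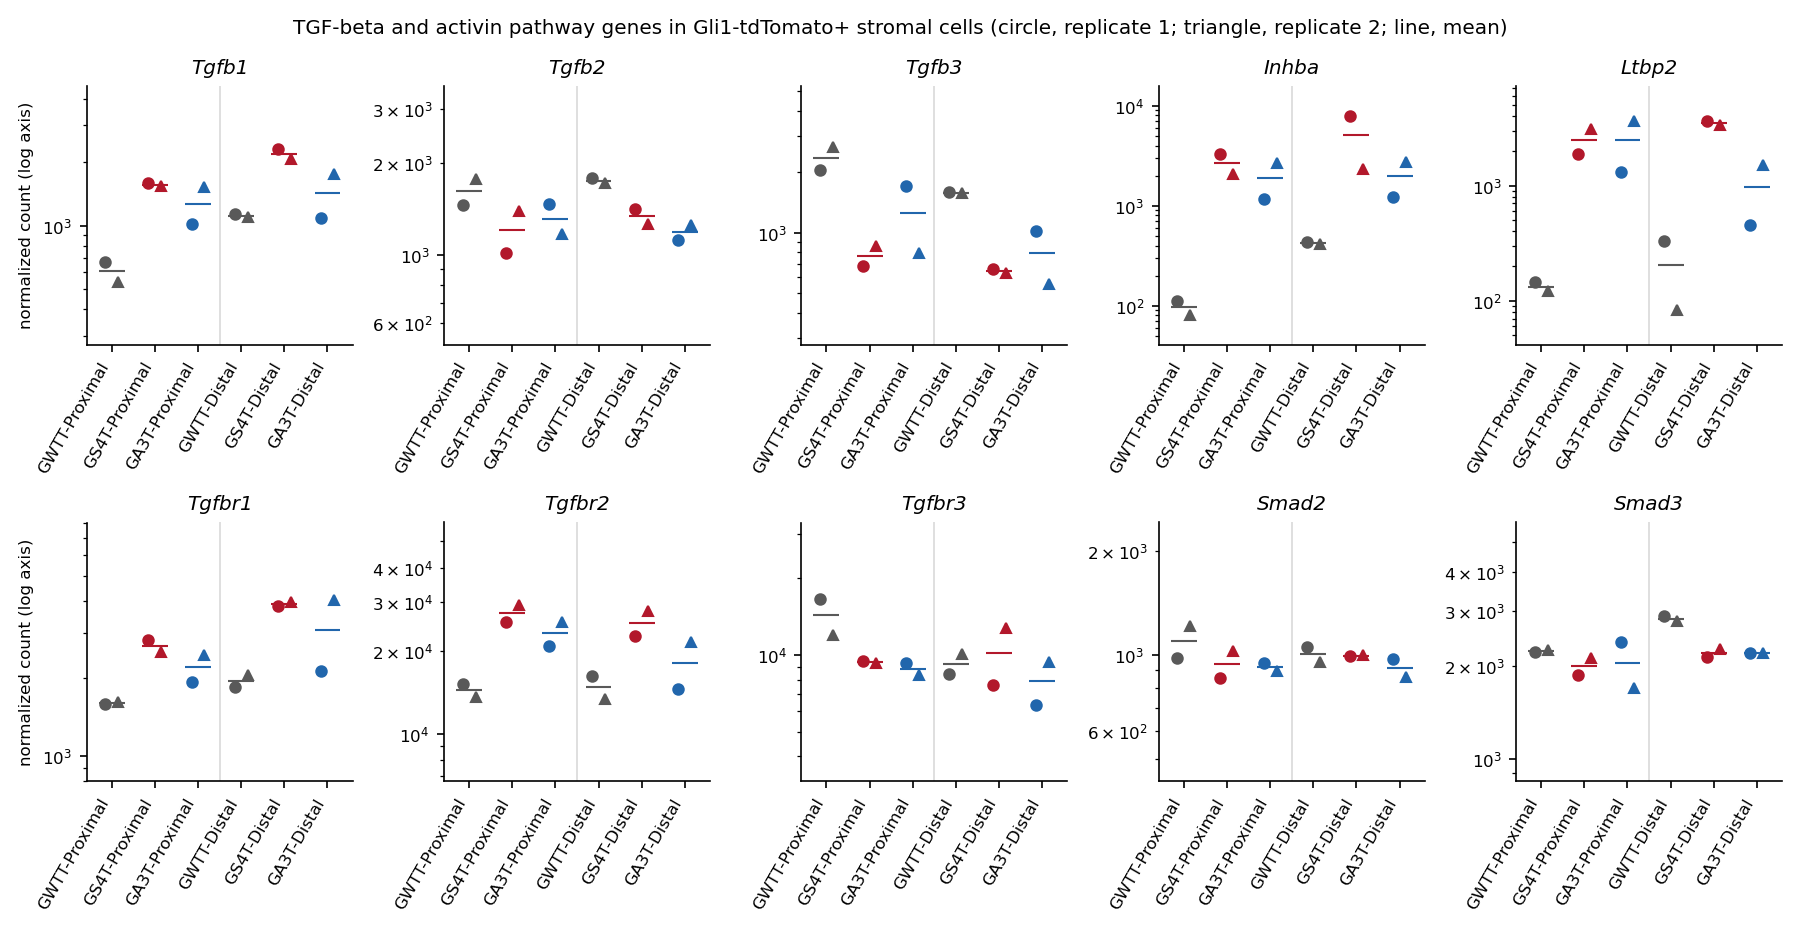
Normalized counts, scaled jointly over the 12 stromal libraries and drawn on a log axis, of the 10 genes in control (GWTT), Smad4 knockout (GS4T) and Alk3 knockout (GA3T) stromal cells of the proximal and distal colon; circles are replicate 1, triangles replicate 2 and lines group means. Inhba and Ltbp2 lie far above their controls in every proximal knockout library, and Tgfb3 lies below its controls in every knockout library.

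Among the ligands, Inhba differed most. The gene encodes the beta A chain shared by activin A and inhibin A and lies at chr13:16011851-16031621 on the forward strand (mm10). In the proximal Smad4 table it was at 105 and 75.8 normalized counts in controls and 3119 and 1985 in GS4T. In the proximal Alk3 table it was at 111 and 79.7 in the same controls and 1151 and 2649.9 in GA3T. All 4 knockout libraries were more than 10 times above both controls. With Smad4 loss the mean went from 90.6 ± 21.0 (SD, n = 2) to 2552 ± 802, a ratio of 28.2, and Inhba rose by 4.78 on the log2 scale (SE 0.28, 95% interval 4.07 to 5.49, adjusted p = 0.00379). With Alk3 loss the means were 95.3 ± 22.1 and 1901 ± 1059.7, and the difference of 4.20 (SE 0.43, 95% interval 3.08 to 5.32) had an adjusted p of 0.0520 by limma, 0.0740 by edgeR and 3.06e-19 by DESeq2. Leaving out the proximal knockout libraries with few Gli1 reads, which leaves 1 library of each knockout, gave 5.11 (adjusted p = 0.0252) for Smad4 loss and 3.60 (adjusted p = 0.0908) for Alk3 loss. Without GA3T-Proximal replicate 1 the Alk3 difference was 4.80 (adjusted p = 0.0355), and with library sex as a block its adjusted p was 0.0316.

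Distal controls held more Inhba, 406 and 379 normalized counts, and the GS4T libraries 7286 and 2171. In the Alk3 table the distal values were 463 and 432 in controls and 1296 and 2913 in GA3T. Both knockouts lay above the controls without overlap, and the first GS4T library was far above the second. Inhba rose by 3.34 with Smad4 loss (SE 0.52, 95% interval 2.06 to 4.62, adjusted p = 0.00981), from 393 ± 18.6 to 4729 ± 3617. Without GS4T-Distal replicate 1 the value was 2.46 (adjusted p = 0.00867) and without replicate 2 it was 4.21 (adjusted p = 0.00132). The Alk3 difference was 2.12 (SE 0.38, 95% interval 1.17 to 3.07), with adjusted p-values of 0.116 by limma, 0.131 by edgeR and 7.26e-07 by DESeq2. Without GA3T-Distal replicate 1 it was 2.70 (adjusted p = 0.00723) and without replicate 2 it was 1.53 (adjusted p = 0.0567).

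Tgfb1, a TGF-beta ligand gene expressed in many immune and stromal cells, lies at chr7:25687002-25705077 on the forward strand. It was at 633 and 507 normalized counts in proximal controls and 1508 and 1449 in GS4T. In the Alk3 table it was at 666 and 533 in controls and 1011 and 1514 in GA3T. Every proximal knockout library exceeded both controls. Tgfb1 rose by 1.38 with Smad4 loss (SE 0.14, adjusted p = 0.00819), from 570 ± 88.8 to 1479 ± 41.4. The call was lost without GS4T-Proximal replicate 1, at 1.35 (adjusted p = 0.0839), and without replicate 2, at 1.41 (adjusted p = 0.0625). With Alk3 loss the difference was 1.05 (SE 0.24), with an adjusted p of 0.120 by limma and 0.00471 by DESeq2, and it was 0.76 (adjusted p = 0.298) without GA3T-Proximal replicate 2. Distal Tgfb1 was at 1047 and 1017 in controls and 2126 and 1911 in GS4T. The distal Alk3 table had 1195 and 1158 in controls and 1159 and 1852 in GA3T, where the first GA3T library lay at the level of the controls and the groups overlapped. The distal Smad4 difference of 0.96 (adjusted p = 0.00428) missed the fold minimum, except without GS4T-Distal replicate 2, when it was 1.04 (adjusted p = 0.00647) and Tgfb1 was called. The distal Alk3 difference was 0.32 (adjusted p = 0.505).

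Tgfb3, a ligand gene expressed mainly in mesenchymal cells, lies at chr12:86056745-86079041 on the reverse strand. Its proximal values were 1905 and 2479 in controls and 644 and 807 in GS4T. Distal values were 1469 and 1443 in controls and 612 and 578 in GS4T. GS4T lay below control in both segments, with no overlap. Tgfb3 fell by 1.59 on the log2 scale in the proximal colon (SE 0.18, adjusted p = 0.0104), from 2192 ± 406 to 726 ± 116, and fell by 1.29 in the distal colon (SE 0.11, adjusted p = 0.00198), from a mean of 1456 to 595. The proximal call was lost without GS4T-Proximal replicate 1, at -1.43 (adjusted p = 0.0826), and without replicate 2, at -1.75 (adjusted p = 0.0504). In the Alk3 tables Tgfb3 was at 2004 and 2606 in proximal controls and 1682 and 791 in proximal GA3T. The distal values were 1676 and 1643 in controls and 1087 and 588 in GA3T. The second GA3T library was the lower one in each segment, and neither group overlapped its controls. The Alk3 differences of -0.99 (adjusted p = 0.230) and -1.05 (adjusted p = 0.178) were not called, and each depended on the library left out. The proximal one was -1.53 (adjusted p = 0.0669) without GA3T-Proximal replicate 1 and -0.44 (adjusted p = 0.503) without replicate 2, and the distal one was -1.49 (adjusted p = 0.00928) without GA3T-Distal replicate 1 and -0.61 (adjusted p = 0.115) without replicate 2.

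Tgfb2, the remaining TGF-beta ligand gene (chr1:186622792-186705989 on the reverse strand), was not called in any of the 4 comparisons. It was at 1364 and 1666 in proximal controls and 962 and 1319.7 in GS4T, and at 1652 and 1588 in controls and 1307 and 1164 in GS4T in the distal colon. GS4T lay below control without overlap in both segments, by -0.42 (adjusted p = 0.194) and -0.39 (adjusted p = 0.0554). In GA3T it was at 1454 and 1166 in the proximal colon, overlapping the controls at 1435 and 1752, and at 1196 and 1320.5 in the distal colon, below the controls at 1884 and 1807. The Alk3 differences were -0.28 (adjusted p = 0.392) and -0.55 (adjusted p = 0.130).

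Ltbp2 encodes a matrix protein of the latent TGF-beta binding protein family and lies at chr12:84783212-84876532 on the reverse strand. In the proximal colon it was at 135 and 114 normalized counts in controls and 1772 and 2924 in GS4T. The Alk3 table gave 143 and 119.6 in controls and 1293 and 3622 in GA3T. Each of the 4 knockout libraries was above both controls, and the GA3T pair was spread the more widely. Ltbp2 rose by 4.19 with Smad4 loss (SE 0.27, 95% interval 3.51 to 4.86, adjusted p = 0.00412), from 125 ± 15.4 to 2348 ± 815, a ratio of 18.8. The Alk3 difference was 4.04 (SE 0.50, 95% interval 2.76 to 5.32), from 131 ± 16.2 to 2457 ± 1647, with adjusted p-values of 0.0664 by limma, 0.0801 by edgeR and 9.74e-16 by DESeq2. Without the libraries with few Gli1 reads the values were 3.82 (adjusted p = 0.0267) for Smad4 loss and 3.30 (adjusted p = 0.0858) for Alk3 loss. Without GA3T-Proximal replicate 1 the Alk3 value was 4.78 (adjusted p = 0.0339), and with library sex as a block its adjusted p was 0.0357.

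Distal Ltbp2 was at 304 and 76.5 in controls and 3372 and 3112 in GS4T. In the Alk3 table it was at 347 and 87.0 in controls and 488 and 1585 in GA3T. The first control held far more than the second, both GS4T libraries stood well above it, and the first GA3T library was close to it. Ltbp2 rose by 4.40 with Smad4 loss (SE 0.59, 95% interval 2.95 to 5.85, adjusted p = 0.00650), from 190.3 ± 161 to 3242 ± 184. It was 5.39 (adjusted p = 0.000921) without GWTT-Distal replicate 1 and 3.41 (adjusted p = 0.00362) without replicate 2. With Alk3 loss the difference was 2.33 (SE 0.82, 95% interval 0.27 to 4.39, adjusted p = 0.234). It was 3.32 (adjusted p = 0.530) without GWTT-Distal replicate 1, 1.34 (adjusted p = 0.698) without GWTT-Distal replicate 2, 3.18 (adjusted p = 0.0912) without GA3T-Distal replicate 1 and 1.48 (adjusted p = 0.448) without GA3T-Distal replicate 2.

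The type II receptor gene Tgfbr2 (chr9:116084293-116175360 on the reverse strand) encodes the receptor that binds the ligand first. It was at 14156 and 12719 in proximal controls and 24123 and 27666 in GS4T. Distal values were 15028 and 12369 in controls and 20902 and 25752 in GS4T. All GS4T libraries were above the controls, by 0.95 (adjusted p = 0.0228) in the proximal and 0.77 (adjusted p = 0.0324) in the distal colon, below the fold minimum of the call. With Alk3 loss Tgfbr2 was at 20704 and 25359.5 in the proximal colon against 14894 and 13373 in controls. Distally it was at 15511 and 22824 against 17144 and 14076. The proximal groups did not overlap and the distal ones did, with differences of 0.70 (adjusted p = 0.143) and 0.28 (adjusted p = 0.584).

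Tgfbr1, which encodes the type I receptor kinase that phosphorylates SMAD2 and SMAD3 (chr4:47353222-47414931 on the forward strand), was at 1491 and 1517 in proximal controls and 2667 and 2379 in GS4T. Distal Tgfbr1 was at 1709 and 1897 in controls and 3503 and 3632 in GS4T. GS4T lay above control without overlap, by 0.74 (adjusted p = 0.0152) and 0.99 (adjusted p = 0.00383), just under the fold minimum in the distal colon. Without GWTT-Distal replicate 2 the distal value was 1.06 (adjusted p = 0.0251) and without GS4T-Distal replicate 1 it was 1.01 (adjusted p = 0.0184), and Tgfbr1 was then called. In GA3T Tgfbr1 was at 1924 and 2461 in the proximal colon and 2264 and 4243 in the distal colon, against proximal controls at 1569 and 1595 and distal controls at 1950 and 2159. All GA3T values exceeded their controls, with differences of 0.46 (adjusted p = 0.187) and 0.59 (adjusted p = 0.356), the latter 1.05 (adjusted p = 0.0182) without GA3T-Distal replicate 1 and 0.14 (adjusted p = 0.591) without replicate 2.

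The coreceptor gene Tgfbr3, which encodes betaglycan (chr5:107106570-107289629 on the reverse strand), was at 15539 and 11255 in proximal controls, 8968 and 8764 in GS4T and, in the Alk3 table, 9248 and 8353 in GA3T against 16349 and 11834 in controls. Both proximal knockouts lay below the controls without overlap, by -0.58 with Smad4 loss (adjusted p = 0.0966) and -0.66 with Alk3 loss (adjusted p = 0.171). Distally the groups overlapped, at 7806 and 9309 in controls and 7055 and 11752 in GS4T, and at 8906 and 10594 in controls and 6783 and 9930.1 in GA3T in the Alk3 table. Those differences were 0.10 (adjusted p = 0.812) and -0.24 (adjusted p = 0.591).

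The transducer genes moved little. Smad3 (chr9:63646767-63757994 on the reverse strand) was at 2080.3 and 2103 in proximal controls and 1759.6 and 2001 in GS4T, and at 2672 and 2572 in controls and 1968 and 2079.6 in GS4T in the distal colon. GS4T lay below control without overlap in both segments, by -0.16 (adjusted p = 0.356) and -0.37 (adjusted p = 0.0470). GA3T libraries held 2366 and 1694 in the proximal colon, which spanned the controls at 2189 and 2211, and 2339.6 and 2324 in the distal colon, below the controls at 3048 and 2927. Their differences were -0.14 (adjusted p = 0.698) and -0.36 (adjusted p = 0.186). Smad2, its close relative, was at 920.2 and 1131 in proximal controls and 812 and 965 in GS4T, and at 974 and 878 in controls and 914 and 917 in GS4T distally. Its groups overlapped, with Smad2 differences of -0.21 and -0.01 (adjusted p = 0.404 and 0.943). Smad2 in GA3T was at 939 and 894 proximally and 1033 and 912 distally, against proximal controls at 968 and 1189 and distal controls at 1111 and 999. The Alk3 differences were -0.23 in the proximal colon (adjusted p = 0.413), where the groups did not overlap, and -0.12 in the distal colon (adjusted p = 0.648), where they did.

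Whether Smad4 loss and Alk3 loss differed from each other was tested directly between the GS4T and GA3T libraries, in a limma fit of all 12 stromal libraries scaled together. In the proximal colon 0 of the 10 genes were called, where 0.0723% of 15211 genes were, and edgeR, DESeq2 and the unadjusted threshold also gave 0. Inhba was 0.58 higher on the log2 scale in GS4T than in GA3T (95% interval -0.77 to 1.94, adjusted p = 0.771), Ltbp2 0.15 higher (-1.50 to 1.79, adjusted p = 0.963) and Tgfb1 0.33 higher (-0.21 to 0.87, adjusted p = 0.669). The Tgfb3 difference was -0.60 (-1.41 to 0.20, adjusted p = 0.602). The intervals of Inhba, Ltbp2 and Tgfb3 include 0 and reach past the fold minimum, so a difference of that size could not be told from none. With each library left out in turn the Inhba difference ran from -0.01 to 1.18 and that of Ltbp2 from -0.59 to 0.89. The other 6 genes lay between -0.13 and 0.29. Leaving out the 2 proximal libraries with few Gli1 reads, an alternative chosen after seeing the data, sets 1 library against 1, so its count of 0 by limma says little.

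In the distal colon 0 of the 10 genes were called in the direct test by limma, edgeR or DESeq2, against 2.03% of 15211 genes by limma. Ltbp2 had the largest of the 10 differences, 2.08 higher on the log2 scale in GS4T (95% interval 0.44 to 3.73, adjusted p = 0.154), and was the 1 gene of the 10 past the unadjusted threshold, where 7.66% of all genes were. Inhba was 1.24 higher (-0.12 to 2.59, adjusted p = 0.293) and Tgfb1 0.66 higher in GS4T (0.12 to 1.20, adjusted p = 0.164). With each library left out in turn the Inhba difference ran from 0.36 to 2.11, that of Ltbp2 from 1.23 to 2.94 and that of Tgfb1 from 0.32 to 1.01, none of them called. Tgfb3, at -0.22 (-1.03 to 0.58, adjusted p = 0.787), had an interval that spanned 0. Tgfbr2, Tgfbr1, Tgfbr3 and Tgfb2 were 0.50, 0.40, 0.35 and 0.18 higher in GS4T, with adjusted p-values from 0.252 to 0.634. Smad2 and Smad3 differed by 0.12 and 0.00. In the same contrast 2 of 5 neutrophil genes were called higher and 3 of 4 B or plasma cell genes lower in GS4T, and their part in these differences was not tested.

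**Figure D2:**
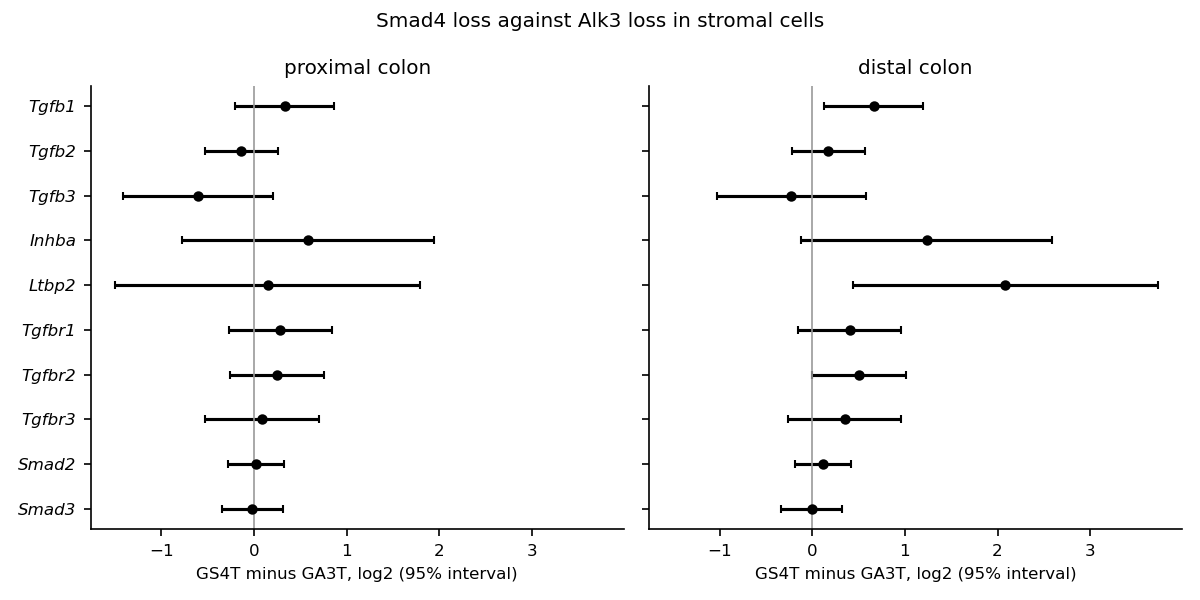
Difference between Smad4 knockout and Alk3 knockout stromal cells (GS4T minus GA3T, log2 scale, points) with 95% intervals (lines) for each of the 10 genes, in the proximal and distal colon, from the fit of 12 libraries. Every proximal interval includes 0, and the distal intervals of Ltbp2 and Tgfb1 lie above it.

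The segments were compared in the same fit, as the proximal response minus the distal response. For Smad4 loss limma, edgeR, DESeq2 and the unadjusted threshold all gave 0 of the 10 genes, and limma called 0.0263% of all genes. The Inhba response differed by 1.43 (95% interval -0.49 to 3.35, adjusted p = 0.719) and the Ltbp2 response by -0.23 (-2.56 to 2.10, adjusted p = 0.980). For Alk3 loss limma called 0 of the 10 and 0% of all genes, and edgeR 0 of either, while DESeq2 called 0 of the 10 and 113 of all genes. Inhba alone of the 10 passed the unadjusted threshold, as did 3.36% of all genes, with a response 2.08 larger in the proximal colon (adjusted p = 0.649). The Ltbp2 response to Alk3 loss differed by 1.71 (-0.62 to 4.04, adjusted p = 0.813) and that of Tgfb1 by 0.73 (-0.03 to 1.49, adjusted p = 0.697).

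To order the genes by level, RPM were divided by exon length in kb, so all values here are levels per kb. In proximal controls Tgfbr3 (122 ± 26.0, mean ± SD, n = 2) and Tgfbr2 (98.0 ± 6.08) were highest, with both Tgfbr3 libraries above both Tgfbr2 libraries. Tgfb3 followed at 38.7 ± 7.69, then Smad3 at 22.5 ± 0.476, and Tgfb2 at 15.6 ± 2.42 and Tgfbr1 at 13.7 ± 0.351, which did not differ beyond their spread. Smad2 at 6.98 ± 1.11 and Tgfb1 at 6.74 ± 0.960 did not differ beyond their spread, nor did Ltbp2 at 0.908 ± 0.0997 and Inhba at 0.846 ± 0.184, which came last. In proximal GS4T Tgfbr2 led at 189 ± 11.8, Inhba stood next after Tgfbr3 at 24.1 ± 8.35, close to Tgfbr1 at 23.2 ± 2.67, and Tgfb3 at 12.8 ± 1.61 and Ltbp2 at 17.1 ± 5.38 did not differ beyond their spread. Proximal GA3T had Ltbp2 at 17.0 ± 11.6 and Inhba at 16.9 ± 9.59, within the spread of Tgfb3 at 20.6 ± 10.2 and Tgfb1 at 14.2 ± 4.18.

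Distal controls had Tgfbr2 at 102 ± 13.4 and Tgfbr3 at 80.1 ± 10.5 per kb as the highest levels, with both Tgfbr2 libraries above both Tgfbr3 libraries. Smad3 at 29.0 ± 0.574, Tgfb3 at 26.4 ± 0.140, Tgfb2 at 17.1 ± 0.359, Tgfbr1 at 16.9 ± 1.37 and Tgfb1 at 12.5 ± 0.169 came next, with Tgfb2 and Tgfbr1 not apart beyond their spread. Smad2 (6.46 ± 0.428), Inhba (3.76 ± 0.152) and Ltbp2 (1.42 ± 1.20) were lowest. Distal GS4T had Inhba at 45.0 ± 34.8, a spread that reached from below the level of Tgfb1 (24.2 ± 2.14) to above that of Tgfbr1 (33.0 ± 0.408), and Ltbp2 at 24.0 ± 1.67. Distal GA3T had Inhba at 17.5 ± 8.66 and Ltbp2 at 6.70 ± 4.74. Ligand levels thus ran from Tgfb3 down to Inhba in both control groups. The mean of Inhba was the highest of the 4 ligands in proximal GS4T, distal GS4T and distal GA3T, each time overlapping the range of Tgfb1, which was at 17.6 ± 1.10 in proximal GS4T and 16.0 ± 4.34 in distal GA3T. Tgfb3, at 10.6 ± 0.574, had the lowest mean of the 4 in distal GS4T.

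Lists of other genes of the pathway were described by how many of them were called and by their median, beside all genes tested. With Smad4 loss 803 genes rose and 668 fell in the proximal colon (median of all genes 0.02), and 1200 rose and 928 fell in the distal colon (0.00). Of the other ligands, 1 of 4 tested rose in each segment, with medians of 0.75 and 0.64. It was Inhbb, which encodes the activin beta B chain, from 117 ± 18.2 to 1492 ± 368 normalized counts in the proximal colon (log2 fold change 3.64, adjusted p = 0.00412) and from 179 ± 8.16 to 1661 ± 335 in the distal colon (3.19, adjusted p = 0.000753). The values for Inhbb with Alk3 loss were 2.73 (adjusted p = 0.117) and 1.11 (adjusted p = 0.244). Of 8 latency and matrix storage genes, 3 rose and 1 fell in the proximal colon (median 0.64) and 1 rose and 1 fell in the distal colon (0.10). Fbn2, a fibrillin gene, rose by 3.46 and 1.52, and Nrros, which tethers latent TGF-beta on myeloid cells, by 1.66 in the proximal colon. Ltbp4, a latent binding protein gene, went from 113480 ± 8688 to 41165 ± 12066 proximally and from 114239 ± 670.1 to 24923 ± 7849 distally, with log2 fold changes of -1.49 and -2.23. Macrophage markers rose in the same libraries as Nrros, and their part in it was not tested.

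Of 9 genes for activation of the latent ligand, 1 rose in the proximal colon (median 0.88) and 3 rose and 1 fell in the distal colon (0.80). The proximal one was Mmp14, a membrane protease gene (1.21, adjusted p = 0.0139). Distally the integrin gene Itgb6 rose by 5.70, from 1.94 ± 1.36 to 156 ± 89.5, and the protease gene Mmp9 by 3.99, from 162 ± 16.7 to 3248 ± 2774, while Itgb8 fell by 1.51. Itgb6 lay below the minimum mean in controls and passed it through GS4T alone, so its fold change is not exact. Itgb6 is an epithelial and Mmp9 also a neutrophil gene, and all 6 epithelial and all 6 neutrophil markers rose in that comparison, whose part in these values was not tested. Of the other receptors and coreceptors, 2 of 7 fell proximally (median 0.06) and 1 of 6 distally (-0.46): Bambi, a pseudoreceptor gene that is also a BMP target, at -1.55 and -1.42, and proximally the activin receptor gene Acvr2a at -1.19. Of 5 secreted antagonists tested, 1 fell proximally (median -1.21; edgeR called 0 and DESeq2 3), and 1 rose and 2 fell distally (-0.02). The antagonist gene Lefty1 fell in both segments (-1.48 and -1.56), the proteoglycan gene Dcn fell by 1.06 distally, and Fst, which encodes the activin binding protein follistatin, rose by 1.77 distally, from 53.0 ± 3.82 to 194 ± 92.7.

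Of 10 intracellular regulators 1 rose in the proximal colon (median -0.24), and in the distal colon limma, edgeR and DESeq2 called 0, with 0 at an unadjusted p under 0.05 (0.09). Of 19 target genes 4 rose and 1 fell proximally (median 0.66), and 3 rose and 2 fell distally (0.48). Pmepa1, a feedback inhibitor that counts in both lists, rose by 1.69 in the proximal colon. Lox, which encodes a collagen crosslinking enzyme, rose proximally from 2492 ± 426 to 9915 ± 609.7 (adjusted p = 0.00523) and distally from 2199 ± 347 to 14541 ± 2948 (log2 fold change 2.72, adjusted p = 0.00123). Acta2, which encodes smooth muscle actin, rose by 1.93 proximally, and the matrix gene Tnc and the cell cycle inhibitor gene Cdkn2b rose by 2.49 and 2.25 distally. Values with Alk3 loss in the proximal colon were 1.95 for Pmepa1 (adjusted p = 0.0538), 0.96 for Lox (0.201) and 1.71 for Acta2 (0.0728). Distal Alk3 values were 0.99 for Lox (adjusted p = 0.234), 0.94 for Tnc (0.116) and 0.88 for Cdkn2b (0.337).

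With Alk3 loss 53 genes rose and 2 fell in the proximal colon, and of the 7 lists 1 gene was called, Fbn2, which rose by 4.26 (adjusted p = 0.0445), from 189 ± 60.2 to 3604 ± 795. In the order other ligands, latency and matrix storage, activation, other receptors, antagonists, intracellular regulators and targets, the proximal medians were 0.63, 0.52, 0.70, 0.15, -1.08, -0.23 and 0.58 and the distal medians 0.30, -0.20, 0.45, -0.46, -0.26, 0.01 and 0.33. Of 4, 8, 9, 6, 5, 10 and 19 genes tested, the proximal counts at an unadjusted p under 0.05 were 2, 4, 3, 2, 2, 1 and 5, and the distal ones 1, 2, 3, 1, 1, 0 and 0, beside 9.46% and 7.77% of all genes. By DESeq2 they were 2, 4, 2, 2, 3, 1 and 5 proximally and 0, 2, 3, 1, 0, 0 and 1 distally, beside 6.29% and 5.03%, edgeR called 0 in every list of both segments, and limma 0 in every list of the distal segment. In the direct test in the distal colon, Lrrc32 (1.10, adjusted p = 0.0233), Fst (1.94, 0.0431), Lox (1.75, 0.0435) and Tnc (1.57, 0.0193) were called higher in GS4T than in GA3T, 4 genes of these lists, where 2.03% of all genes were called. With sex as a block 1.03% were, and of the 4 only Tnc was kept (1.46, adjusted p = 0.0452), with Lrrc32 at 0.98 (0.0469), Fst at 2.17 (0.0512) and Lox at 1.48 (0.0771). In the proximal colon limma, edgeR and DESeq2 called 0 of them in the direct test, and 1 target gene passed the unadjusted threshold. The other 4 lists had 0 by limma and edgeR in the distal direct test, and 2 other ligands passed the unadjusted threshold, 1 of them called by DESeq2. For the segment contrasts limma and edgeR called 0. At the unadjusted threshold the Smad4 contrast had 1 of 8 latency genes, 1 of 5 antagonists and 3 of 19 targets, beside 739 of all 15211 genes, and the Alk3 contrast 2 of 8 latency genes, 1 of 5 antagonists, 1 of 10 regulators and 3 of 19 targets, beside 511. DESeq2 called 1 latency gene, 1 antagonist and 1 target for Smad4, beside 235 of all genes, and 1 latency gene, 1 regulator and 1 target for Alk3, beside 113.

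For the 4 genes called in stromal cells, the genes with the most similar pattern over the 12 stromal libraries were found as those with the smallest root mean square difference of centered log2(RPM + 1), among 15210 other genes. For Inhba they included Il1b (0.542) and Cxcl14 (0.586), where the median gene had 1.87. Il1b, an inflammatory cytokine gene, lay at 9.14 to 12.9 RPM in proximal controls and 124 to 275 in distal GS4T. Cxcl14 lay at 32.7 to 52.1 and 845 to 874 in the same groups. The study reports Il1b as raised in cultured Gli1 stromal cells with Smad4 or Alk3 knockout. Macrophage markers also rose with Smad4 loss in the libraries described here, and the part of each cell type was not tested. For Ltbp2 they included Col7a1 (0.630) and A730049H05Rik (0.632), against a median of 1.91. For Tgfb1 the nearest were Slc9a5 (0.178), Acsl4 (0.178) and Epas1 (0.186), with a median of 0.642, and for Tgfb3 Olfml1 (0.165), Lgi4 (0.169) and Pir (0.189), with a median of 0.754. Olfml1 was at 52.6 to 52.7 RPM in distal controls and 19.5 to 19.6 in distal GS4T.

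Promoters of Inhba and Ltbp2 are shown because these genes rose in both segments with Smad4 loss, each as a window of 300 bases of which the last 50 follow the start of transcription (RefSeq, GRCm38.p6, written along the strand of the gene). RefSeq promoters were matched for 7 of the 10 genes, all but Tgfb3, Tgfbr3 and Smad2. Capitals mark CAGAC or its complement GTCTG, the letters of a SMAD binding element. CAGAC or GTCTG was found 3 times in the Ltbp2 window (chr12:84876442-84876741, reverse strand) and 0 times in the Inhba window (chr13:16011601-16011900, forward strand), and it occurred in 49.5% of 32544 promoters of this length. Of the other 5 windows, that of Tgfb2 held 2, that of Tgfbr2 held 1, and those of Tgfb1, Tgfbr1 and Smad3 held 0. GGCGCC, the core of a BMP response element and its own complement, was found 1 time in the Tgfbr1 window and 0 times in the other 6, and in 11.9% of all promoters. A match describes these letters and is not a binding site.
Inhba promoter: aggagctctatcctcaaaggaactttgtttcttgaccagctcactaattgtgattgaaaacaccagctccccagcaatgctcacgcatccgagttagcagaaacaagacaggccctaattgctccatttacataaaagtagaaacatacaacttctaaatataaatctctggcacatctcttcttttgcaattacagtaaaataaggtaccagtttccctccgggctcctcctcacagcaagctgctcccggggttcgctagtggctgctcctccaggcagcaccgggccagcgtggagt
Ltbp2 promoter: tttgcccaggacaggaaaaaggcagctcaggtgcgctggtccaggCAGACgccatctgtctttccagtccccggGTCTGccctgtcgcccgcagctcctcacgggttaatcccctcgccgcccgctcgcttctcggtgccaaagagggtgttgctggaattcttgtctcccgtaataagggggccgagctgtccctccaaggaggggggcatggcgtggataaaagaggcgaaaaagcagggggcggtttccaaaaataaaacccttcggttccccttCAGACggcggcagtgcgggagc

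In goblet cells, which were not deleted themselves, the pathway genes were fewer and lower. Tgfb2, Tgfb3 and Tgfbr3 had no value in any of the 4 goblet cell tables, Inhba had one only in the proximal Alk3 table and Ltbp2 only in the 2 proximal tables. The label was checked by Muc2, which was at 168657 and 212088 normalized counts in proximal controls and 401714 and 356310 in proximal GS4M2. Distally it was at 43021 and 113478 in controls and 238217 and 194631 in GS4M2. In the Alk3 tables Muc2 was at 179572 and 224217 in proximal controls and 18753 and 14042 in GA3M2, and at 41156 and 109532 in controls and 16015 and 12294 in GA3M2 in the distal colon. Muc2 was abundant in every library but lower in GA3M2, where it fell by 3.63 proximally (adjusted p = 0.0464). The sums of the 8 goblet cell genes were 29837 and 32995 RPM in proximal controls, 35567 and 39405 in GS4M2 and 12631 and 9084 in GA3M2. Distally the sums were 34046 and 61479 in controls, 40118 and 47846 in GS4M2 and 21204 and 12423 in GA3M2. Fibroblast genes summed to at most 21.1 in any goblet cell library, and Gli1 had no value in any goblet cell table.

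The deposited names of the proximal GS4M2 and GWTM2 columns are used here, although a table of the study names these groups the other way round, so each direction in the proximal Smad4 comparison of goblet cells rests on the deposited names. The proximal GWTM2 libraries of that table had the same reads as those named GWTM2 in the Alk3 table for all 13681 genes in both, so the proximal Alk3 comparison, the proximal direct test and the segment contrasts of goblet cells rest on these names too. Under the deposited names Muc2 was 1.00 higher in proximal GS4M2 (adjusted p = 0.237), without a call. The study describes mucin genes as raised in goblet cells of both GS4M2 and GA3M2 mice. In GA3M2 the Muc2 values given above ran the other way, below the controls in both segments. Smad4 was at 1904 and 1684 in proximal controls and 1776 and 1845 in GS4M2, and at 2819.8 and 2790.3 in controls and 2571 and 2682 in GS4M2 distally. Bmpr1a was at 1966 and 2131 in proximal controls and 1572 and 1336 in GA3M2, and at 1588 and 1868 in controls and 1372 and 1410 in GA3M2 distally. Smad4 in GA3M2 was at 2638 and 2692 proximally and 3364 and 3949 distally, against proximal controls at 2027 and 1780.2 and distal controls at 2698 and 2693, and Bmpr1a in GS4M2 was at 1468 and 1586 proximally and 1374 and 1500.2 distally, against proximal controls at 1846 and 2015 and distal controls at 1659.7 and 1936. Smad4 in GS4M2 was close to control, Smad4 in GA3M2 was above it without a call, and Bmpr1a in GA3M2 lay below it in both segments without a call (adjusted p = 0.281 and 0.487). Bmpr1a also lay below control without overlap in GS4M2, by -0.34 and -0.32 (adjusted p = 0.199 and 0.474), so the lower values were not particular to GA3M2.

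Limma called 0 of the 6 pathway genes tested with stromal Smad4 loss in proximal goblet cells, where it called 0.325% of 13238 genes, and 0 of 5 in distal goblet cells, where it called 0% of 13070. With stromal Alk3 loss it called 0 of 5 in the proximal colon (0.0899% of 13344 genes) and 0 of 5 in the distal colon (0% of 13080). With replicate number as a block it called 258 (1.95%) and 698 (5.23%) of all genes in the proximal Smad4 and Alk3 comparisons. Both proximal totals also moved by large amounts when 1 library was left out, which leaves 1 library in a group. The block called 0 of the pathway genes in either. In all 4 comparisons edgeR and DESeq2 called 0 of these genes and 0 passed the unadjusted threshold, while over all genes of the distal comparisons 353 and 539 passed it, edgeR called 0 and 0, and DESeq2 149 and 240. By their sex-linked reads all GS4M2 and GA3M2 libraries were male and each GWTM2 group held a female and a male library. Sex as a block, an alternative chosen after seeing the data, thus sets 2 knockout libraries against the 1 male control, as leaving out the female control does, and cannot tell sex from that library. Limma then called 224 (1.71%) and 656 (5.02%) of all genes in the distal Smad4 and Alk3 comparisons and 0 of the pathway genes in all 4. Smad3 was at 954 and 887 in proximal controls and 1209 and 1244 in GS4M2, and the groups did not overlap. Its difference of 0.41 (95% interval 0.16 to 0.66, adjusted p = 0.150) was the 1 among the tested pathway genes of these tables with an interval clear of 0. In proximal GA3M2 Smad3 was at 1103 and 921 against 1016 and 938 in controls, and the groups overlapped. Distal Smad3 was at 728 and 963 in GS4M2 and 915 and 1027 in GA3M2, against controls at 799 and 858 and, in the Alk3 table, at 764 and 828, with overlap only in GS4M2.

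Tgfbr2 was at 2177 and 1819 in proximal controls, 2435 and 2218 in GS4M2 and 2737 and 1873 in GA3M2. In distal controls it was at 2557 and 1636, in GS4M2 at 1513 and 1825 and in GA3M2 at 2672 and 1993. Only the proximal GS4M2 libraries did not overlap their controls. Tgfb1 was low, at 153 and 140.3 in proximal controls, 168 and 174 in GS4M2 and 218 and 131 in GA3M2. The first distal control, at 309, held more Tgfb1 than the second at 109, and the distal knockouts, at 199 and 180.2 in GS4M2 and 288 and 151 in GA3M2, lay between them. Tgfbr1 was at 841 and 976 in proximal controls, 1076 and 886 in GS4M2 and 887 and 802 in GA3M2, and at 757 and 791 in distal controls, 658 and 670.1 in GS4M2 and 634 and 821 in GA3M2. Smad2 was at 558 and 608 in proximal controls, 617 and 676 in GS4M2 and 647 and 688 in GA3M2, and at 690.4 and 882 in distal controls, 759.8 and 793 in GS4M2 and 709.6 and 784 in GA3M2. These controls are as scaled in the Smad4 tables. In the Alk3 tables, which hold the GA3M2 values, the proximal controls were at 2318 and 1923 for Tgfbr2, 163 and 148 for Tgfb1, 896 and 1032 for Tgfbr1 and 594 and 642 for Smad2, and the distal ones at 2446 and 1579 for Tgfbr2, 296 and 105 for Tgfb1, 724 and 764 for Tgfbr1 and 660.5 and 851 for Smad2. Tgfbr1 lay below its controls without overlap in proximal GA3M2 and distal GS4M2, and Smad2 above them in both proximal knockouts. Tgfbr1 and Smad2 had differences from -0.22 to 0.15 over the 4 comparisons. Inhba was at 0 in both proximal controls and at 9.06 and 5.53 in GA3M2, below the minimum mean. Ltbp2 was between 3.43 and 18.3 in the proximal tables, and its groups overlapped. Per kb, proximal control goblet cells had Tgfbr2 at 14.3 ± 1.88, Smad3 at 9.73 ± 0.550, Tgfbr1 at 8.14 ± 0.813, Smad2 at 3.89 ± 0.216 and Tgfb1 at 1.70 ± 0.111. The distal order was the same, from 14.3 ± 4.66 for Tgfbr2 to 2.33 ± 1.61 for Tgfb1.

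In the joint fit of the 12 goblet cell libraries, limma called 0 of the 5 pathway genes tested between GS4M2 and GA3M2 in the proximal colon, where 0.447% of 12964 genes were called, and 0 in the distal colon (0.594%). The segment contrasts also had 0 of 5, where 0.0154% of all genes were called for Smad4 loss and 0.00771% for Alk3 loss, and all 4 counts were 0 by edgeR, by DESeq2 and at the unadjusted threshold. Smad3 was 0.38 higher on the log2 scale in GS4M2 than in GA3M2 proximally (95% interval 0.03 to 0.73, adjusted p = 0.179). Distal Tgfbr2 differed by -0.53 (-1.08 to 0.01, adjusted p = 0.357).

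Of the pathway lists in goblet cells, stromal Smad4 loss came with 2 of 8 activation genes called up in the proximal colon (median 0.43), Itgb8 (4.40, adjusted p = 0.0393) and Itgav (1.17, adjusted p = 0.0374), which encode integrin chains. Itgb8 was at 2.48 ± 1.08 in controls and 71.6 ± 17.7 in GS4M2. It passed the minimum mean of 10 through GS4M2 alone, so its fold change is not exact. Skil, a negative regulator and target of the pathway that counts in both lists, rose by 1.58, from 739 ± 182 to 2179.9 ± 190.3, as 1 of 9 intracellular regulators (0.26) and 1 of 10 targets (0.36). The other 4 lists had 0 called by limma and edgeR, 1 latency gene was called by DESeq2 and passed the unadjusted threshold, and medians were 0.01 for ligands, -0.07 for latency, -0.01 for receptors and -0.18 for antagonists. In the other 3 goblet cell comparisons limma and edgeR called 0 genes of the 7 lists. Medians, in the order ligands, latency, activation, receptors, antagonists, regulators and targets, were 0.91, -0.06, 0.06, -0.05, 0.51, -0.03 and -0.14 for distal Smad4 loss. They were 1.40, 0.08, 0.48, -0.14, 2.27, 0.34 and 1.83 for proximal Alk3 loss and 0.91, 0.46, 0.45, -0.11, 0.13, 0.11 and 0.43 for distal Alk3 loss. For distal Smad4 loss 1 of 6 receptor genes passed the unadjusted threshold and DESeq2 called 1. For proximal Alk3 loss 10 of 17 targets, 3 of 8 activation genes, 2 of 2 ligands, 2 of 4 antagonists, 2 of 9 regulators and 1 of 7 receptor genes passed it, and DESeq2 called 10, 2, 1, 2, 2 and 0, where over all 13344 genes 911 passed it and DESeq2 called 431. For distal Alk3 loss 2 of 8 activation genes and 1 of 9 targets passed it, and DESeq2 called 1 activation gene. Proximal GA3M2 libraries also held more macrophage and neutrophil reads, at 32.4 and 41.6 RPM for macrophage genes, against 13.4 and 12.0 in controls, and 19.8 and 82.1 for neutrophil genes, against 1.06 and 0.378, with 2 macrophage and 2 neutrophil genes at 0 in each control, and their part was not tested. In the direct test Gdf15, a distant relative of the TGF-beta ligands, was lower in proximal GS4M2 than in GA3M2 (-1.84, adjusted p = 0.0408), and limma called no other gene of the lists in either segment.

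In organoids the cytokines acted on epithelium without stroma, and 5 of the 10 genes were tested in each table: Tgfb1, Tgfbr1, Tgfbr2, Smad2 and Smad3. Ltbp2 was listed in 3 of the 4 tables, below the minimum mean, at 0 to 15.4 normalized counts, and the other 4 genes had no value in any. After 12 h limma called 0 of 5 with IL-1 (0.0542% of 12911 genes) and 0 of 5 with IL-17A (0.0385% of 12975), as did edgeR and DESeq2. At the unadjusted threshold 1 gene passed with each, Tgfb1, against 0.922% and 1.08% of all genes. Tgfb1 was at 110.6, 101.0 and 200.6 normalized counts in the 12 h controls and 249, 327 and 329.9 with IL-1. In the IL-17A table it was at 116, 106 and 210.1 in the same controls and 209, 320.2 and 322 with IL-17A. IL-1 libraries were all above the controls, while the lowest IL-17A library lay just under the highest control. The differences were 1.19 (95% interval 0.51 to 1.87, adjusted p = 0.695) and 1.01 (0.27 to 1.76, adjusted p = 0.844). With replicate number as a block limma gave 0.94 (adjusted p = 0.000247) and 0.73 (adjusted p = 7.69e-05), under the fold minimum. By their sex-linked reads Control-12h replicates 1 and 2 were male and replicate 4 female. With each cytokine, replicate 1 was male and replicates 3 and 4 were female, so the unblocked differences also hold this imbalance. Smad3 was at 744, 727 and 679.7 in the 12 h controls and 805, 806 and 869 with IL-1, and at 781, 762 and 712 in controls and 793, 814 and 826 with IL-17A in the IL-17A table. Its groups did not overlap, at differences of 0.20 and 0.11 (adjusted p = 0.886 and 0.926). As controls are scaled in the IL-1 table, Tgfbr1 was at 474, 694 and 797 in controls, 419.6, 845 and 855 with IL-1 and 441, 839 and 885 with IL-17A. Tgfbr2 was at 2059, 3028 and 2493 in controls, 2465, 3083 and 3161 with IL-1 and 2298, 3066 and 3237 with IL-17A. Smad2 was at 852, 871 and 972 in controls, 961, 1016 and 1063 with IL-1 and 936, 1138 and 1137 with IL-17A. These 3 genes differed by 0.04 to 0.21 with overlapping groups.

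After 72 h limma called 2 of 5 with IL-1, where 23.0% of 13021 genes were called, and 1 of 5 with IL-17A, where 7.94% of 13071 were. Tgfb1 was at 95.8, 175 and 192 in the 72 h controls and 636, 353 and 281 with IL-1. With IL-17A it was at 494, 459 and 459.8, against 95.6, 174 and 192 in the same controls. All cytokine libraries exceeded all controls, the IL-17A libraries were close together, and the first IL-1 library stood above the others. Tgfb1 rose by 1.42 with IL-1 (95% interval 0.54 to 2.30, adjusted p = 0.0218), from 155 ± 51.6 to 423 ± 188 (n = 3), and by 1.67 with IL-17A (0.97 to 2.37, adjusted p = 0.0356), from 154 ± 51.4 to 471 ± 19.9. The IL-1 call was lost without Control-72h replicate 1, at 1.11 (adjusted p = 0.0520), and without IL1-72h replicate 1, at 1.08 (adjusted p = 0.0530). The IL-17A call was lost without Control-72h replicate 2, at 1.79 (adjusted p = 0.170), without Control-72h replicate 4, at 1.86 (adjusted p = 0.160), without IL17A-72h replicate 1, at 1.63 (adjusted p = 0.167), and without IL17A-72h replicate 3, at 1.68 (adjusted p = 0.0596). It was also lost with the near-identical Control-72h replicates 2 and 4 averaged, an alternative chosen after seeing the data, at 1.82 (adjusted p = 0.164), where 2 of all genes were called. A block on replicate number gave 1.87 (adjusted p = 0.199), without a call.

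Tgfbr1 was at 658, 802 and 765 in the 72 h controls and 228, 339 and 197 with IL-1. With IL-17A it was at 216, 504 and 149.9, against 657, 798 and 763. The cytokine libraries all lay below the controls, with the second IL-17A library the closest to them. Tgfbr1 fell by 1.57 with IL-1 (95% interval -2.11 to -1.04, adjusted p = 0.00367), from 742 ± 74.7 to 255 ± 74.5. The IL-17A difference of -1.53 (-2.53 to -0.53, adjusted p = 0.0574) was not called, and without IL17A-72h replicate 2 it was -2.03 (adjusted p = 0.00291). Smad3 was at 689, 711 and 652 in controls and 1389, 1111 and 1469.9 with IL-1, and at 688, 707 and 651 in controls and 1262, 961 and 1624 with IL-17A in the IL-17A table. Cytokine libraries were all above the controls, by 0.94 (adjusted p = 0.00463) and 0.88 (adjusted p = 0.0480), under the fold minimum. It was called without IL1-72h replicate 2, at 1.06 (adjusted p = 0.00361), and without IL17A-72h replicate 2, at 1.07 (adjusted p = 0.00554).

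At 72 h, with controls as scaled in the IL-1 table, Tgfbr2 was at 2870.3, 2314 and 2391 in controls, 3004, 2278 and 1582 with IL-1 and 2988, 4212 and 1625 with IL-17A. Smad2 was at 826, 946 and 933 in controls, 876, 814 and 910.4 with IL-1 and 958, 890.1 and 806 with IL-17A. Both overlapped between groups, with Tgfbr2 and Smad2 differences of -0.18 and -0.06 with IL-1 and 0.13 and -0.02 with IL-17A. Control-72h replicates 1 and 4 held the same reads as Control-12h replicates 2 and 4, so the times share these libraries and no difference between times was tested. Leaving out these shared controls, an alternative chosen after seeing the data, left Control-72h replicate 2 alone. Against it Tgfb1 was 1.18 higher (adjusted p = 0.189) and Tgfbr1 differed by -1.69 (adjusted p = 0.0827) with IL-1, and Tgfb1 was 1.43 higher with IL-17A (adjusted p = 0.460), and with this single control none was called. All IL17A-72h libraries were male by their sex-linked reads and Control-72h replicate 1 was the 1 male control, so sex as a block sets them against that library alone. Tgfb1 was then 2.29 higher (adjusted p = 0.127) and not called.

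**Figure D3:**
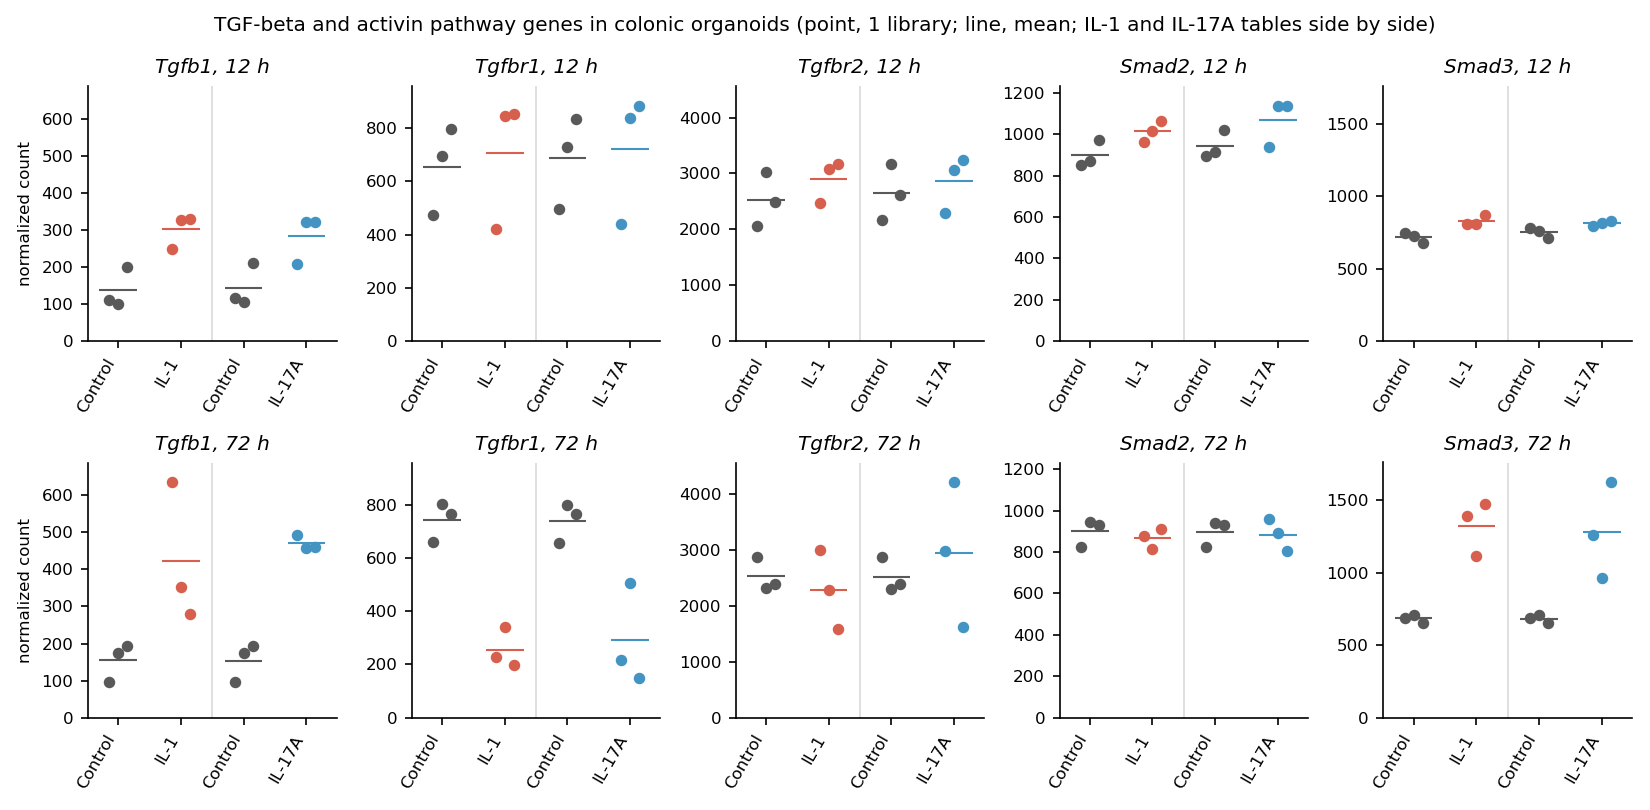
Normalized counts of Tgfb1, Tgfbr1, Tgfbr2, Smad2 and Smad3 in organoids at 12 h and 72 h, controls beside IL-1 in the IL-1 table and beside IL-17A in the IL-17A table; each point is 1 library and each line a group mean. At 72 h the Tgfb1 and Smad3 points of both cytokines lie above all controls and the Tgfbr1 points below them.

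Per kb, Control-72h organoids had Tgfbr2 at 20.5 ± 2.35 (n = 3), Smad3 at 8.22 ± 0.288, Tgfbr1 at 7.57 ± 0.789, Smad2 at 6.84 ± 0.536 and Tgfb1 at 2.05 ± 0.695. The Tgfbr1 libraries, at 6.67 to 8.14, overlapped those of Smad3 (7.93 to 8.51) and of Smad2 (6.23 to 7.16), which lay apart from each other. The 12 h lists of the pathway had 0 genes called by limma, edgeR or DESeq2 and 0 at the unadjusted threshold with either cytokine, with medians from -0.41 to 0.38. After 72 h with IL-1, 5 of 8 target genes rose (median 1.24), with Junb (2.20), Cdkn1a (2.19) and Cdkn2b (1.86) the largest. With IL-17A 3 of 9 did (1.14), Junb by 1.92, Cdkn1a by 1.70 and Skil by 1.30. These targets respond to many other signals as well. Intracellular regulators had 2 of 9 up with IL-1 (0.29), Smad7 by 1.25 and Skil by 1.23, and 1 of 9 up with IL-17A (0.32). Over all genes 23.0% were called with IL-1 and 7.94% with IL-17A, so the counts of regulators lay near these shares. With replicate number as a block Smad7 was at 0.98 with IL-1 (adjusted p = 0.121) and was not called.

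Other receptors had 2 of 6 up with each cytokine, with medians of 0.14 and 0.19: Acvrl1 by 1.48 with IL-1 and 1.72 with IL-17A, and the activin type I receptor gene Acvr1b by 1.15 and 1.11. With replicate number as a block both IL-1 calls were lost, at 1.51 for Acvrl1 (adjusted p = 0.105) and 0.97 for Acvr1b (adjusted p = 0.0430). Activation genes had 2 of 6 up and 1 down with IL-1 (0.46) and 2 of 6 up with IL-17A (0.44). Itgb5 rose by 1.39 and 1.44, Itgav by 1.24 and 1.23, and Thbs1 fell by 2.10 with IL-1. Gdf15 was the 1 of 2 other ligands to rise, by 2.93 with IL-1, from 589 ± 103 to 6283 ± 5935, and by 3.36 with IL-17A, from 587 ± 103 to 6950.5 ± 4312 (list medians 1.08 and 0.86). Of latency genes limma called 0 of 5 with IL-1 (median 0.57, 0 unadjusted, 1 each by edgeR and DESeq2), and 1 of 4 with IL-17A (0.98), Emilin1, which fell by 2.66. Emilin1 was low, at 25.3 ± 3.17 in controls and 3.54 ± 2.18 with IL-17A. Antagonists had 0 of 1 called with IL-1 (median 1.02, 1 unadjusted, 0 by edgeR, 1 by DESeq2) and 0 of 2 with IL-17A (1.33, 1 unadjusted, 0 by edgeR and DESeq2). Over all genes 1414 rose and 1584 fell with IL-1 (median 0.00) and 656 rose and 382 fell with IL-17A (-0.01). With replicate number as a block 1506 genes were called with IL-1 and 4 with IL-17A, and none of the IL-17A calls of the lists was kept. The 1038 IL-17A calls depended on single libraries. They became 218 without Control-72h replicate 1, 4 without Control-72h replicate 2, 3 without Control-72h replicate 4 or IL17A-72h replicate 1, 86 without IL17A-72h replicate 3 and 3577 without IL17A-72h replicate 2. With sex as a block, and so 1 control, 5 genes were called, and none of the IL-17A calls of the lists was kept.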

How the data were processed

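RNA of sorted stromal cells, sorted goblet cells and colon organoids was sequenced in 42 libraries (12 stromal, 12 goblet cell, 18 organoid). The authors aligned reads to mm10 with STAR 2.5.3, kept uniquely mapped reads and deposited 12 tables of signal as normalized counts, made by dividing counts by DESeq2 1.28.1 size factors. The counting program, the gene annotation and the strand setting were not given.

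The members and lists were chosen with earlier results of these data known. Within each table the main test was limma 3.58.1 on log2(normalized count + 1), with genes at a mean of at least 10, Benjamini-Hochberg adjustment over all genes tested, and calls where the adjusted p was under 0.05 and the log2 fold change 1 or more, or -1 or less. Whole reads, recovered from the normalized counts, went into edgeR 4.0.16 and DESeq2 1.42.0 and, after joint scaling by median-of-ratios size factors, into a limma fit of the 6 stromal or 6 goblet cell groups for GS4 against GA3 and for proximal against distal responses. Levels between genes are RPM per kb of exon. The scripts (R 4.3.3, Python 3.11.15) were tested on simulated data. Depth had a median of 17404903 reads on named genes in stromal, 17607508 in goblet cell and 17030322 in organoid libraries.

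All 10 genes were named in every comparison, and Smad4, Bmpr1a, Gli1 and Muc2 in every sorted sample. Of the 7 pathway lists (other ligands, latency and matrix storage, activation of the latent ligand, other receptors and coreceptors, secreted antagonists, intracellular regulators, target genes), at most the 3 called genes of largest fold change per list and comparison were named. The 10 cell marker lists (goblet, epithelial, fibroblast, smooth muscle, macrophage, neutrophil, T, B or plasma, endothelial, glia and neuron) were given by counts and medians in the stromal tables. For each of the 10 genes called in stromal cells, the 3 genes most alike were named, of which 2 are not reported here.

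Alternatives were other pseudocounts (0.1 and 10), no filter or a minimum mean of 50, upper-quartile scaling, unadjusted p, no fold minimum, replicate number as a block, edgeR, DESeq2 and each library left out in turn. Chosen after seeing the data were sex as a block, near-identical libraries averaged, controls also deposited for 12 h left out, and proximal knockout libraries with few Gli1 reads left out. Left out were rows without a gene name (up to 28.2% of the values, in a GS4M2 table), rows whose gene names had become dates, and rows with repeated names.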

Additional observations from a re-analysis of the deposited data

How the results depend on the processing

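Of the single-gene results under the alternatives, 2126 stayed called in the same direction or, uncalled, moved by less than the spread between replicates, 123 moved by more, 25 passed the threshold anew and 16 no longer passed it. No called value changed sign, but many uncalled values did, among them Tgfbr3 with distal Smad4 loss (-0.27 to 0.46) and Smad3 with proximal Alk3 loss (-0.38 to 0.10) when 1 library was left out. For Smad4 loss in distal stromal cells the count of called pathway genes without a fold minimum was 7 in place of 3. For Alk3 loss in proximal stromal cells the count of 0 became 1 with a pseudocount of 10, 1 without a filter, 3 by unadjusted p, 3 by DESeq2 and 2 with sex as a block. For Alk3 loss in distal stromal cells it became 3 by unadjusted p, 1 by DESeq2 and 3 with sex as a block. At 12 h unadjusted p gave 1 for IL-1 and 1 for IL-17A. For IL-1 at 72 h the count of 2 became 0 without the controls also deposited for 12 h. For IL-17A at 72 h the count of 1 became 2 by unadjusted p, 2 without a fold minimum, 2 by DESeq2, 0 with sex as a block, 0 with near-identical libraries averaged and 0 without the controls also deposited for 12 h. Unadjusted p gave 1 for the distal direct test and 1 for the segment contrast of Alk3 loss in stromal cells. For IL-17A at 72 h the unadjusted count stands beside 2688 of 13071 genes and the DESeq2 count beside 17.7% of all genes. Without a fold minimum, without a filter and with a pseudocount of 10, no share of all genes is given, so these counts have no background. Sex as a block leaves 1 GA3T-Distal library and 1 control for IL-17A at 72 h, and leaving out the controls also deposited for 12 h leaves 1 control. Tests on fewer libraries have less precision, and otherwise the cause was not tested.

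With each library left out in turn, and a lone library assumed to vary like the others, the counts ran from 2 to 4 and 3 to 4 for proximal and distal Smad4 loss, 0 to 2 and 0 to 3 for proximal and distal Alk3 loss, 1 to 3 for IL-1 and 0 to 3 for IL-17A at 72 h, and were 0 throughout in all other comparisons.

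The labels give no reason to pair libraries by replicate number. Deviations of libraries with the same number correlated at 0.0966 to 0.191 in stromal, -0.0571 to 0.302 in goblet cell, 0.619 to 0.637 in 12 h organoid and -0.186 to 0.200 in 72 h organoid comparisons. With the number as a block, counts were 4 and 3 for Smad4 loss, 2 and 0 for Alk3 loss, 2 for IL-1 and 0 for IL-17A at 72 h, and 0 in all other comparisons. At 72 h limma then called 1506 of all genes in place of 2998 with IL-1 and 4 in place of 1038 with IL-17A, where Tgfb1 was at 1.87 (adjusted p = 0.199). At 12 h it called 100 genes in place of 7 with IL-1 and 120 in place of 5 with IL-17A, and Tgfb1 was 0.94 (adjusted p = 0.000247) and 0.73 (adjusted p = 7.69e-05) higher, under the fold minimum.

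Depth limits the genes near the minimum mean, Inhba in goblet cells and Ltbp2 in organoids, which held too few reads for a fold change.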

Other observations

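Control-72h replicate 1 held the same reads as Control-12h replicate 2, and Control-72h replicate 4 the same as Control-12h replicate 4, with 0 genes differing in either pair. IL1-12h replicates 3 and 4, IL17A-12h replicates 3 and 4, and Control-72h replicates 2 and 4 were nearly alike, with dispersion indices of 3.02, 3.33 and 3.30.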
